A study of Mus musculus with 6 samples.

Results

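The miR-143 and miR-145a cluster is a pair of miRNA hairpins that is transcribed together, mainly in smooth muscle cells and other mesenchymal cells. Its 4 mature products, mmu-miR-143-3p, mmu-miR-143-5p, mmu-miR-145a-5p and mmu-miR-145a-3p, were taken by name from the 1546 mature mouse miRNAs listed for the livers, and all 4 were listed. They were measured by small RNA sequencing in 6 liver libraries of C57BL/6 mice, 3 from mice on a normal diet (NC) and 3 from MAFLD mice on a high-fat diet. Per the methods of the paper, the mice were male, entered the diets at 8 weeks of age and stayed on them for 16 weeks. They were fasted for 6 hours before sacrifice, and no transgene or other treatment was named. Each library is labelled as liver tissue of 1 replicate, so the signal comes from all cells of the liver, and a change in the number of mesenchymal cells cannot be told apart from a change in the miRNA content of each cell.

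MiRNAs are short RNAs cut from a hairpin precursor. One arm of the hairpin is usually loaded into an Argonaute protein and represses mRNAs that pair with its seed, while the other arm, the passenger, is mostly degraded. In vascular smooth muscle, serum response factor and myocardin switch on the shared transcript, and miR-145a holds back Klf4 and Klf5, transcription factors that lead cells away from the contractile state. In the liver these miRNAs are known from vessel walls, portal fibroblasts and stellate cells, and miR-143 is also known from obese mice, where it was tied to insulin signalling through Orp8. The comparison of NC with MAFLD livers asks whether the levels of the cluster's products differ with the diet.

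In the mouse reference GRCm38, Mir145a (ENSMUSG00000065592.2) spans chr18:61647825-61647894 and Mir143 (ENSMUSG00000065445.3) spans chr18:61649196-61649258, both on the minus strand and with 1301 bases between them. In GENCODE M21 no other annotated gene covers either hairpin. They lie between 2 long noncoding RNA genes, Bvht on the plus strand, which ends at 61647472 before Mir145a, and Carmn on the same strand as the hairpins, which starts at 61649625 after Mir143. In RefSeq the Carmn gene is longer, from 61645878 to 61665538, and both hairpins lie within it. Whether they lie in its exons or introns was not analysed here. A near copy, Mir145b, lies on the same chromosome from 69022199 to 69022273.

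The libraries held between 1336935 and 4685712 reads on miRNAs, and levels are given as CPM, reads scaled to a common total over all listed miRNAs. MiR-148a-3p, a miRNA abundant in hepatocytes, took between 46.8% and 71.4% of the reads of a library, so the CPM of every other miRNA is compressed by a different amount in each. Over the 501 miRNAs tested, the median log2 fold change (MAFLD over NC) was 0.43, which became 0.044 with median-ratio scaling, where a size factor per library is the median of its ratios to the geometric means of the miRNAs. NC replicates 1 and 2 held 344 and 530 CPM of miR-9-5p, typical of brain, against 4.48 to 12.4 CPM in the other libraries, and the members did not share this pattern, since NC replicate 1 was the lowest library for each of them and NC replicate 3 the highest.

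MiR-143-3p, the arm with nearly all reads of its hairpin, was one of the most abundant miRNAs of the liver. In the NC livers it stood at 12080, 22990 and 28509 CPM in replicates 1, 2 and 3, and in the MAFLD livers at 18515, 18624 and 25403 CPM. It ranked between 5 and 9 among all listed miRNAs in every library. The 3 MAFLD livers lay inside the range of the NC livers, and the NC livers alone differed by 2.36-fold. Counting error was small beside this spread, since the 95% Wilson interval of NC replicate 1 ran from 11947 to 12215 CPM. The group means were almost equal, at 21193 ± 8360 CPM in NC and 20848 ± 3946 CPM in MAFLD livers (SD, n = 3).

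The passenger arm miR-143-5p was scarce. It was read 25, 26 and 41 times in NC livers, which is 9.81, 16.6 and 30.7 CPM, and 47, 68 and 37 times in MAFLD livers, which is 17.6, 14.5 and 24.1 CPM. The MAFLD livers again lay within the NC range, and the means were 19.0 ± 10.6 and 18.8 ± 4.90 CPM (SD, n = 3).

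MiR-145a-5p, the arm known to repress Klf4 and Klf5, was far less abundant than its neighbour. It stood at 135, 271 and 436 CPM in the NC livers and at 321, 213 and 416 CPM in the MAFLD livers, ranking between 56 and 69 in the 6 libraries. All 3 MAFLD values fell between the lowest and the highest NC value, and the means were 281 ± 151 CPM in NC and 317 ± 102 CPM in MAFLD livers (SD, n = 3). Its passenger arm miR-145a-3p stood at 33.3, 40.1 and 92.0 CPM in the NC livers and at 72.4, 49.5 and 80.8 CPM in the MAFLD livers. Here too the groups overlapped, with means of 55.2 ± 32.1 and 67.6 ± 16.2 CPM (SD, n = 3).

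**Figure D1:**
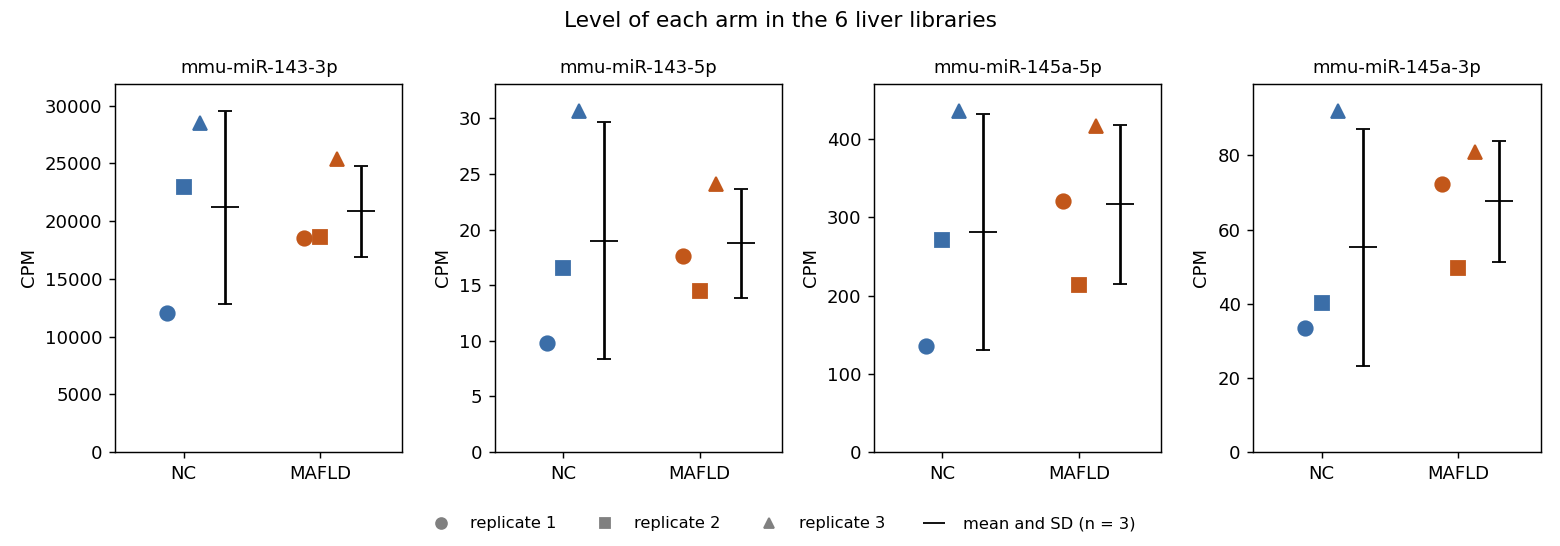
CPM of the 4 arms of the miR-143 and miR-145a cluster in 3 NC (blue) and 3 MAFLD (orange) livers, with a linear axis from 0 in each panel, symbols for the replicate number, and the mean and SD beside the points. In every panel NC replicate 1 is the lowest and NC replicate 3 the highest, and the 3 MAFLD livers lie between them.

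No difference between the diets was detected for any of the 4 arms. The test was limma on log2(CPM + 1) with Benjamini-Hochberg adjustment, run for every miRNA that averaged 1 CPM or more. By this test 0 of 4 passed an adjusted p of 0.05, where 1 of the 501 did (0.2%). At an unadjusted p under 0.05 it was again 0 of 4, against 90 of 501 (18%). On the recovered reads edgeR and DESeq2 called 0 of 4 at either threshold. Over the 501 miRNAs edgeR called 1 at the adjusted and 87 at the unadjusted threshold, and DESeq2 called 28 and 83. The NC and MAFLD values were apart for 0 of the 4 arms, against 97 of the 501 miRNAs (19.4%).

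The log2 fold change of miR-143-3p was 0.049 (standard error 0.31, adjusted p = 0.95 from limma). Its 95% interval ran from −0.62 to 0.71, that is, from 0.653-fold to 1.64-fold. With 3 livers a group, changes inside that range were not excluded. MiR-143-5p had a value of 0.091 on this scale (standard error 0.50, interval −0.98 to 1.16, adjusted p = 0.940). The values were 0.28 for miR-145a-5p (standard error 0.44, interval −0.67 to 1.22, adjusted p = 0.764) and 0.40 for miR-145a-3p (standard error 0.46, interval −0.58 to 1.39, adjusted p = 0.653). A two-sided exact permutation test of the same log2 values gave p = 0.9, 0.9, 0.7 and 0.5 in this order, where 3 livers against 3 allow no p below 0.1.

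The sign of these small differences depended on the scaling. All 4 lay above 0 and all 4 lay below the median of the miRNAs tested, 0.43, on the CPM scale. With median-ratio scaling all 4 lay below 0, at −0.42 for miR-143-3p, −0.35 for miR-143-5p, −0.19 for miR-145a-5p and −0.055 for miR-145a-3p, against a median of 0.044 over all miRNAs tested. When CPM was recomputed without miR-148a-3p, miR-143-3p stood at 42198, 62703 and 55380 CPM in the NC livers and at 34776, 43056 and 52515 CPM in the MAFLD livers. The groups overlapped on this scale as well, and NC replicate 1 was no longer the lowest library for miR-143-3p. Of the other arms, only miR-145a-5p kept NC replicate 1 as the lowest, at 473 CPM against 493 CPM in MAFLD replicate 2.

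**Figure D2:**
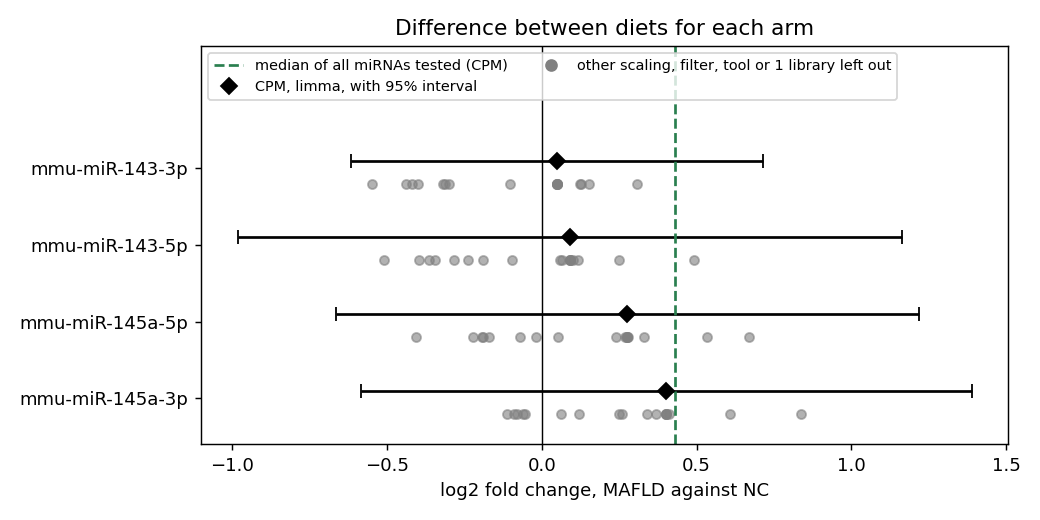
Log2 fold change of each arm, MAFLD against NC, from limma on log2(CPM + 1) with its 95% interval (black), and under each alternative scaling, filter or tool or with 1 library left out (grey), with the median of all 501 miRNAs as a dashed line. The intervals of all 4 arms cover 0 and the grey points fall on both sides of it, between −0.55 and 0.84.

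The spread among the NC livers was wider than among the MAFLD livers, for the members as for the other miRNAs. The SD of log2(CPM + 1) was 0.64 in NC against 0.26 in MAFLD livers for miR-143-3p, and 0.85 against 0.49 for miR-145a-5p. For comparison, 238 miRNAs averaged 10 CPM or more, and their median SD was 0.58 in NC and 0.34 in MAFLD livers. The order seen for the members, with NC replicate 1 lowest and NC replicate 3 highest, was found for 23 of these 238 miRNAs (9.66%). The members are included in both numbers. NC replicate 1 alone was the lowest library for 121 of them (50.8%), and it was the library with the largest share of miR-148a-3p.

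The cluster as a whole, the sum of the 4 arms, took 1.23%, 2.33% and 2.91% of the miRNA reads in the NC livers and 1.89%, 1.89% and 2.59% in the MAFLD livers. The means were 2.15% ± 0.854 and 2.13% ± 0.405 (SD, n = 3). Of the reads other than miR-148a-3p, the cluster took 4.28%, 6.36% and 5.65% in the NC and 3.55%, 4.37% and 5.36% in the MAFLD livers. MiR-143-3p made up most of this sum in each library.

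Ratios within a library do not depend on how libraries are scaled, and the arm balance of both hairpins is such a ratio. Among 131 hairpins with both arms listed and at least 10 CPM on average for the larger arm, the smaller arm took a median of 2.23% of the CPM of both arms. MiR-143 was among the more one-sided, in position 17 counted from the most one-sided, with 0.0897% on its 5p arm. MiR-145a was at the other end, in position 107, with 17.0% on its 3p arm. The hairpins thus differed in arm balance, with the 3p arm as the major one in miR-143 and the 5p arm in miR-145a.

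The arm balance did not differ detectably between the diets. MiR-143-5p took 0.0811%, 0.0720% and 0.107% of the reads of its hairpin in NC and 0.0951%, 0.0779% and 0.0948% in MAFLD livers (two-sided exact permutation test, p = 0.9). The Wilson intervals of all 6 libraries overlapped. MiR-145a-3p took 19.8%, 12.9% and 17.4% of the reads of its hairpin in NC and 18.4%, 18.8% and 16.3% in MAFLD livers (exact permutation test, p = 0.7). NC replicate 2 stood lowest, with 63 of 489 reads and an interval of 10.2% to 16.1%, which did not reach the interval of NC replicate 1 (16.3% to 23.8%) or of the MAFLD replicates 1 and 2 (16.2% to 20.9% and 16.8% to 21.1%). These intervals cover counting error only, since the libraries carry no molecular identifiers in the sources used here.

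**Figure D3:**
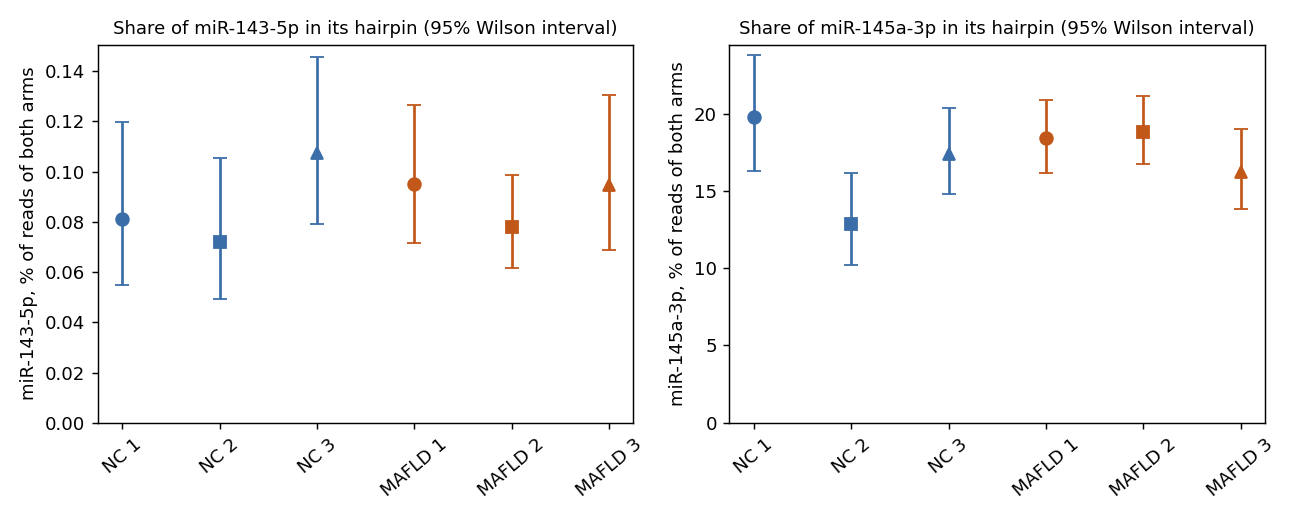
Share of the passenger arm in the reads of both arms, in percent, for miR-143 (left, miR-143-5p) and miR-145a (right, miR-145a-3p), with 95% Wilson intervals in NC (blue) and MAFLD (orange) libraries. The share stays between 0.0720% and 0.107% for miR-143 and between 12.9% and 19.8% for miR-145a, with no separation of the diets.

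MiR-143-3p and miR-145a-5p come from 1 primary transcript but were read at very different levels, and comparisons between miRNAs also carry differences in adapter ligation. There were 89.3, 84.7 and 65.4 reads of miR-143-3p for each read of miR-145a-5p in NC and 57.7, 87.4 and 61.0 in MAFLD livers. The log2 ratio was 6.31 ± 0.24 in NC and 6.08 ± 0.33 in MAFLD livers (SD, n = 3), a difference of −0.23 (exact permutation test, p = 0.3). Over the 5 ratios and shares of this family the Benjamini-Hochberg adjusted p was 0.9 for each, those of the arm balance on a log2 scale included.

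The ratio varied within both diets. In NC replicates 1 and 2 and MAFLD replicate 2 the intervals of the ratio lay at 80.3 to 99.3, 77.0 to 93.2 and 82.1 to 93.0, and in NC replicate 3 and MAFLD replicates 1 and 3 at 60.2 to 70.9, 53.9 to 61.7 and 56.4 to 66.0. These intervals hold counting error only and leave out the spread between mice, and the libraries are put in this order by the ratio itself, so no test of the order was made. The 3 libraries with the higher ratio were also the 3 with the largest share of miR-148a-3p, at 71.4%, 63.3% and 56.7%, while the other 3 had 48.5%, 46.8% and 51.6%. The part of the library composition in this ratio was not tested.

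**Figure D4:**
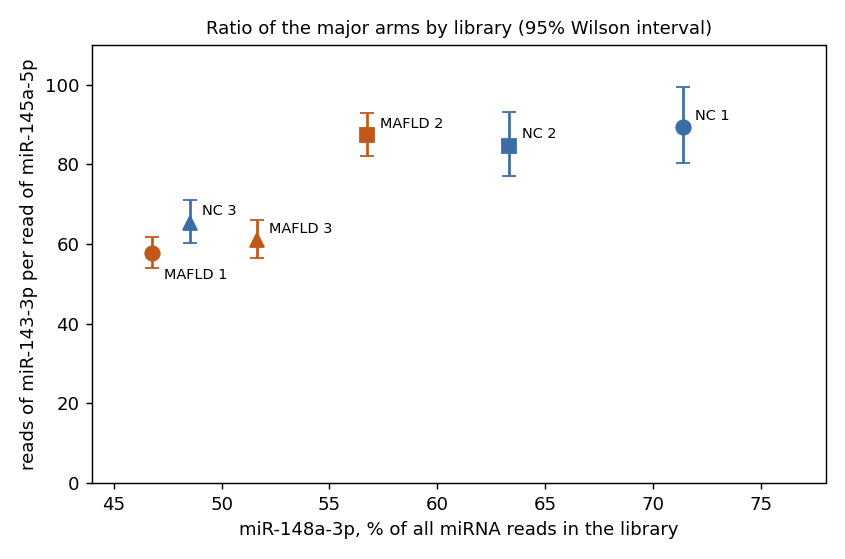
Reads of miR-143-3p per read of miR-145a-5p in each library, with 95% Wilson intervals, against the share of all miRNA reads taken by miR-148a-3p, with NC in blue and MAFLD in orange. Libraries above 56% of miR-148a-3p lie between 84.7 and 89.3, and libraries below 52% lie between 57.7 and 65.4, with both diets in each range.

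MiR-145b, whose name marks it as a close relative of miR-145a, was read 1, 1 and 3 times in NC and 3, 6 and 6 times in MAFLD livers. This is 0.939% of the reads of miR-145a-5p or less in each library, so reads divided between both names would change miR-145a-5p by little.

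The other mesenchymal miRNAs, a list of 15 names that holds products of miR-199, miR-214, miR-152, miR-140, miR-218, miR-10b, miR-100, miR-125b and miR-99a, were compared next. One of the miR-199a hairpins and miR-214 are made from a transcript on the opposite strand of Dnm3 and are known from hepatic stellate cells. All 15 were tested, and 0 passed an adjusted p of 0.05 with limma or edgeR. DESeq2 called 1, miR-218-5p, as lower, against 28 of the 501 miRNAs tested. MiR-199a-3p and miR-199b-3p had identical values and are counted once in what follows, which leaves 14 measurements. An unadjusted limma p under 0.05 was reached by 3 that were higher in MAFLD livers (miR-199a-3p, miR-199b-5p and miR-214-3p) and by 1 that was lower (miR-218-5p), where 13.2% of all miRNAs tested were higher and 4.6% lower by this rule. A log2 fold change above 0 was found for 11 of the 14, against 71.2% of all miRNAs tested. Their median log2 fold change was 0.64, against 0.43 over all, and with median-ratio scaling, both names counted, it was 0.21 against 0.044. The median of the 4 members was 0.18 on CPM and −0.27 with median-ratio scaling, so they lay below both on each scale. The most abundant of the 15, miR-99a-5p, stood at 5333 ± 198 CPM in NC and 7637 ± 672 CPM in MAFLD livers (SD, n = 3, adjusted p = 0.304 from limma). MiR-218-5p, with a log2 fold change of −2.05, stood highest in NC replicates 1 and 2 (103 and 242 CPM against 13.9 to 41.1 CPM elsewhere), the 2 libraries with the most miR-9-5p, and the part of brain-typical RNA in its value was not tested. The sum of the list ran from 7747 to 10275 CPM in NC and from 11121 to 14287 CPM in MAFLD livers. MiR-99a-5p made up most of it, and the values of the diets were apart for 97 of all 501 miRNAs (19.4%). The sum was taken on CPM only, which is compressed most in NC replicate 1, with 71.4% of its reads on miR-148a-3p. Whether the sums stay apart on another scale was not tested. Without NC replicate 3, the NC library with the highest sum, 9 of the 14 passed the adjusted p in limma, all but miR-218-5p higher in MAFLD livers, against 114 of 501 over the whole table and 0 of the 4 cluster members.

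MiR-199a-3p and miR-126a-3p, the latter made in endothelial cells, served as yardsticks for the other nonparenchymal cells. MiR-214-3p was compared by its level only. The RefSeq mature sequences (GRCm38.p6) of all of them are shown with the seed, bases 2 to 8, in capitals. The listed miR-199a-3p and miR-199b-3p are shown together because their sequences and their values in all libraries were identical, which is why they count as 1 measurement. MiR-199a-3p is encoded at chr9:21496498-21496519 (minus strand) and chr1:162217883-162217904 (plus strand), miR-199b-3p at chr2:32318524-32318545 (plus strand), miR-214-3p at chr1:162223438-162223459 (plus strand) and miR-126a-3p at chr2:26591402-26591423 (plus strand).
miR-199a-3p: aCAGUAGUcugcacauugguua
miR-199b-3p: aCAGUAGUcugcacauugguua
miR-214-3p: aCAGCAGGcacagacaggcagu
miR-126a-3p: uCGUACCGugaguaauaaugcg

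MiR-199a-3p stood at 270, 363 and 689 CPM in the NC livers and at 890, 614 and 755 CPM in the MAFLD livers. The difference was 0.87 on the log2 scale (standard error 0.38, unadjusted p = 0.0390 and adjusted p = 0.247 from limma), and MAFLD replicate 2 lay below NC replicate 3. MiR-214-3p stood at 11.0, 14.0 and 50.1 CPM in NC and 63.8, 46.5 and 43.0 CPM in MAFLD livers, a log2 difference of 1.29 (standard error 0.54, adjusted p = 0.223 from limma). For both, NC replicates 1 and 2 were below all other libraries. On CPM without miR-148a-3p the groups were apart for miR-199a-3p, at 943, 989 and 1338 CPM in NC and 1671, 1419 and 1560 CPM in MAFLD livers. For miR-214-3p they overlapped on that scale, with 97.3 CPM in NC replicate 3 and 88.9 CPM in MAFLD replicate 3.

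Set against miR-199a-3p in the same library, miR-143-3p was lower in each MAFLD liver than in each NC liver. There were 44.8, 63.4 and 41.4 reads of miR-143-3p per read of miR-199a-3p in NC and 20.8, 30.3 and 33.7 in MAFLD livers. The log2 ratio differed by −0.82, that is, the ratio was 0.566-fold (two-sided exact permutation test, p = 0.1, the smallest that 3 against 3 allow, and 0.333 after adjustment over the 5 ratios of this kind, which were chosen after the levels had been seen). The ratio to miR-199a-3p was lower in every MAFLD than in every NC library for 110 of the 500 miRNAs compared (22%), miR-143-3p among them. Over all 500 the median log2 difference of this ratio was −0.44. For miR-145a-5p the ratio to miR-199a-3p was 0.501, 0.749 and 0.633 in NC and 0.361, 0.347 and 0.552 in MAFLD libraries, and the groups overlapped (exact permutation test, p = 0.2).

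Against miR-126a-3p, whose own level was 5148 ± 997 CPM in NC and 8245 ± 1232 CPM in MAFLD livers (SD, n = 3, adjusted p = 0.212 from limma), the ratio of miR-143-3p was 2.64, 5.04 and 4.53 in NC and 1.92, 2.40 and 3.47 in MAFLD libraries. The groups overlapped through NC replicate 1 (exact permutation test, p = 0.2). Against miR-122-5p, the main miRNA of hepatocytes, it was 0.287, 0.422 and 0.335 in NC and 0.263, 0.337 and 0.375 in MAFLD libraries (exact permutation test, p = 0.8), with the values of both diets intermixed.

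**Figure D5:**
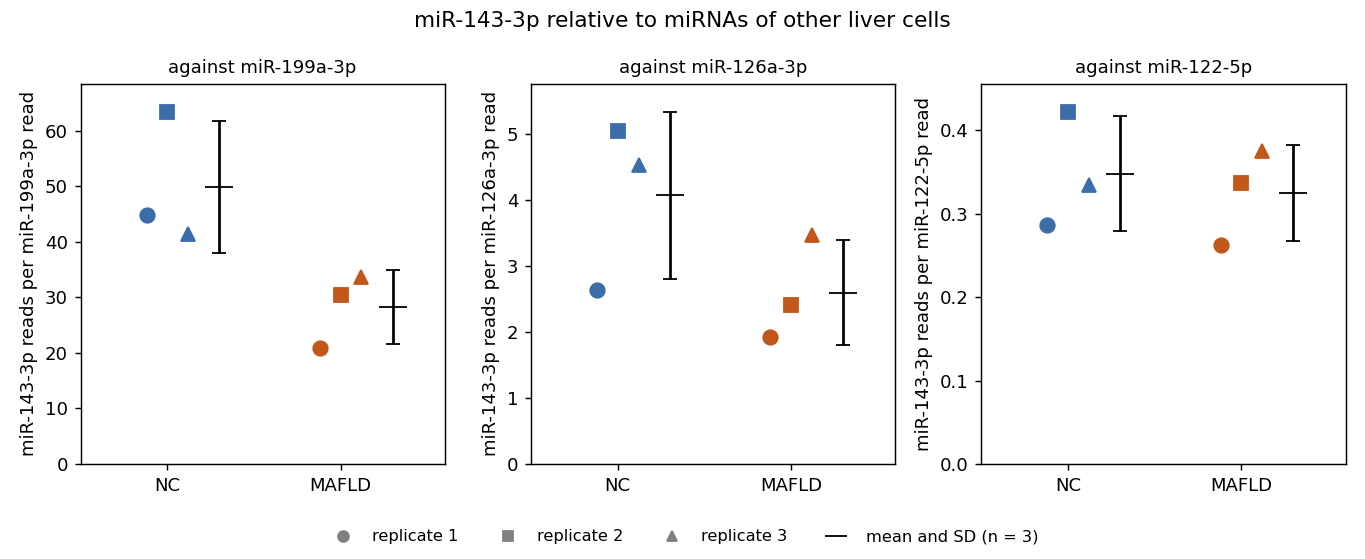
Reads of miR-143-3p per read of miR-199a-3p, miR-126a-3p and miR-122-5p in NC (blue) and MAFLD (orange) livers, with a linear axis from 0, symbols for the replicate number, and the mean and SD beside the points. The diets are apart against miR-199a-3p, at 41.4 to 63.4 and 20.8 to 33.7, and overlap against the other 2 miRNAs.

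Markers of other tissues were checked beside the members. MiR-1a-3p, known from striated muscle and also made in smooth muscle, stood at 49.8, 238 and 180 CPM in NC and 32.6, 37.6 and 223 CPM in MAFLD livers. The 3 libraries with the most miR-1a-3p, NC replicates 2 and 3 and MAFLD replicate 3, were also the 3 with the most miR-143-3p. MiR-10b-5p was highest in the same 3, at 150, 120 and 216 CPM against 33.0 to 54.1 CPM elsewhere. Of the members only miR-143-3p had this order. MAFLD replicate 1, with the least miR-1a-3p, stood above NC replicate 2 for miR-145a-5p (321 against 271 CPM), miR-145a-3p (72.4 against 40.1) and miR-143-5p (17.6 against 16.6). The other defining markers of striated muscle were near 0 in all libraries: miR-133a-3p did not exceed 4.49 CPM, miR-206-3p did not exceed 2.61 CPM, and miR-208a-3p was at 0. Of the 9 striated muscle miRNAs on the list, 6 were listed, 3 were tested and 0 passed an adjusted p of 0.05 with limma, edgeR or DESeq2 (0 unadjusted with limma), and the sum of the list ran from 52.2 to 242 CPM in NC and from 37.5 to 230 CPM in MAFLD livers. The part of muscle RNA in the values of the members was not tested.

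The sums of the remaining lists were taken on CPM only, which miR-148a-3p compresses by a different amount in each library. The endothelial pair summed to between 4710 and 6587 CPM in NC and between 7659 and 10155 CPM in MAFLD livers. On CPM without miR-148a-3p the diets overlapped for miR-126a-3p, the more abundant of the pair. It stood there at 16008 CPM in NC replicate 1 and 15147 CPM in MAFLD replicate 3. For miR-126a-5p the diets stayed apart there, at 473, 401 and 561 CPM in NC and 956, 648 and 687 CPM in MAFLD livers. How many of all miRNAs were apart on this scale was not counted. The 5 hepatocyte miRNAs summed to between 652214 and 816441 CPM in NC and between 644087 and 715313 CPM in MAFLD livers, mainly through miR-148a-3p. The 6 leukocyte miRNAs summed to between 1616 and 3061 CPM and between 2223 and 3314 CPM, and the 4 erythroid ones to between 602 and 1212 CPM and between 431 and 999.6 CPM. The 5 biliary epithelial ones summed to between 196 and 867 CPM and between 249 and 437 CPM, with the highest value in NC replicate 3. The 5 brain miRNAs summed to between 50.1 and 744 CPM in NC and between 44.4 and 65.2 CPM in MAFLD livers, and the 4 pancreas ones to 9.77 CPM or less everywhere. Over all 9 lists, with the identical pair counted once, 45 miRNAs were tested and 0 passed an adjusted p of 0.05 with limma or edgeR. DESeq2 called 3 of them (miR-218-5p, miR-128-3p and miR-9-5p, all lower), against 28 of the 501 miRNAs tested. An unadjusted limma p under 0.05 was found for 7 with higher values in MAFLD livers (15.6%, against 13.2% of all miRNAs tested) and for 3 with lower values (6.67%, against 4.6%). Without NC replicate 3, 19 of the 45 passed the adjusted p in limma, against 114 of 501 over the whole table. Among them were both endothelial miRNAs, 3 of 5 hepatocyte, 1 of 6 leukocyte and 4 of 4 brain miRNAs tested, the last all lower. This fit keeps NC replicates 1 and 2, with brain sums of 463 and 744 CPM, and drops NC replicate 3, with 50.1 CPM. With all 6 libraries the log2 fold change was above 0 for 0 of these 4 brain miRNAs, with a median of −2.11. The part of brain-typical RNA in these values was not tested.

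The other miRNAs were ranked by how closely they followed the major arms, with the 4 members left out of the ranking, and none of the mesenchymal list was among the nearest 5 of either arm. Likeness was measured as Pearson's r of log2(CPM + 1) over the 6 libraries among 128 miRNAs that averaged 50 CPM or more, as a description, since all share the scaling of their library. For miR-143-3p the 5 nearest outside the cluster were let-7e-5p (r = 0.995), miR-3535 (r = 0.941), miR-3068-3p (r = 0.926), miR-425-5p (r = 0.857) and miR-182-5p (r = 0.852). Let-7e-5p stood at 93.7, 161 and 202 CPM in NC and 142, 142 and 178 CPM in MAFLD livers, the same order of libraries as miR-143-3p. For miR-145a-5p the 5 nearest outside the cluster were miR-122-5p (r = 0.936), let-7e-5p (r = 0.935), miR-23b-3p (r = 0.926), miR-26a-5p (r = 0.924) and miR-3535 (r = 0.919). MiR-143-3p and miR-145a-5p had r = 0.924 with each other, which would place each among the 5 nearest of the other. Between the members r ran from 0.745, for miR-143-3p with miR-145a-3p, to 0.967, for miR-143-5p with miR-145a-5p. On CPM without miR-148a-3p the same pairs had r of 0.168 and 0.904, and miR-143-3p with miR-145a-5p had r = 0.679.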

How the data were processed

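Total RNA of 6 mouse livers was treated to remove modifications that hinder adapter ligation, and small RNA libraries were sequenced on a NextSeq 500. The table deposited by the authors holds CPM of 1546 mature miRNAs, scaled to the reads on all listed miRNAs. The submitters' processing notes name FastQC, cutadapt, Bowtie, edgeR and the build GRCm38, without roles. The miRNA database is not given in the sources used here. The labels' protocols also describe HepG2 cells, but each sample is labelled mouse liver.

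Whole reads were recovered by dividing by the smallest value of each library, and 100% of values came within 0.02 of a whole number. The limma 3.58.1 fit (R 4.3.3, trend, log2(CPM + 1), two-sided, Benjamini-Hochberg) covered 501 miRNAs averaging 1 CPM or more. Ratios were compared with two-sided exact permutation tests, and Wilson intervals (scipy 1.17.1) cover counting error only. On the recovered reads, edgeR 4.0.16 called 1 miRNA and DESeq2 1.42.0 called 28. The methods were tested on simulated data. The members and the marker lists were chosen with earlier results of these data known. Named miRNAs are the members, miR-145b, the 5 nearest in likeness to each major arm, abundant members of the lists, and, chosen after their values were seen, miR-199a-3p, miR-199b-3p, miR-214-3p, miR-218-5p, miR-10b-5p and the scarce muscle miRNAs. The alternatives were other pseudocounts (0.1 and 5), filters (none and 10 CPM), scalings and tools, the replicate block, and each library left out. Of the miRNAs on the lists, 3 were not among those listed by the authors. The replicates are separate samples of a group, and p-values measure the spread between them. No sequence of the members was printed.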

Additional observations from a re-analysis of the deposited data

How the results depend on the processing

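No arm of the cluster passed an adjusted p of 0.05 in any of the 72 fits of an alternative, where the adjusted p ran from 0.112 to 0.981. In 2 of them the unadjusted p was under 0.05, for miR-143-3p (−0.55) in the median-ratio fit of 5 libraries that leaves out NC replicate 1, a setting chosen after seeing the data, and for miR-145a-3p (0.84) without NC replicate 3. The direction changed with the scaling, with 1 exception. MiR-143-3p (0.049) became −0.42 with median-ratio scaling, −0.30 on CPM without miR-148a-3p, −0.32 with quantile normalization, −0.40 with edgeR and −0.44 with DESeq2. In the same order miR-143-5p (0.091) became −0.35, −0.24, −0.19, −0.36 and −0.40, and −0.51 in the median-ratio fit of 5 libraries. MiR-145a-5p (0.28) became −0.19, −0.071, −0.018, −0.19 and −0.22, and −0.41 in that last setting. MiR-145a-3p (0.40) became −0.055, −0.082, −0.060 and −0.089 with median-ratio scaling, quantile normalization, edgeR and DESeq2, and −0.11 in that last setting, but stayed above 0, at 0.063, on CPM without miR-148a-3p. The median of all miRNAs moved from 0.43 to between −0.0049 and 0.16 in these settings. Leaving out 1 library gave −0.31 to 0.31 for miR-143-3p, −0.28 to 0.49 for miR-143-5p, −0.17 to 0.67 for miR-145a-5p and 0.12 to 0.84 for miR-145a-3p. The lowest value came without NC replicate 1 and the highest without NC replicate 3 for each arm.

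The 1 miRNA past the adjusted p in the whole table became 11 with no filter, 2 with median-ratio scaling, 2 without miR-148a-3p, 0 in limma without trend (74 at an unadjusted p under 0.05), 28 with DESeq2, and 5 in the median-ratio fit of 5 libraries. Omitting 1 library gave 0 to 114 calls, with 0 without NC replicate 1 or 2 or MAFLD replicate 1 or 2, 3 without MAFLD replicate 3 and 114 without NC replicate 3. The cause was not tested.

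With the replicate block 5 miRNAs passed, and the members had the same log2 fold changes and no call. No pairing of the mice by number is named in the sources used here. Deviations of same-numbered livers had correlations of 0.012, −0.020 and −0.046, and those of livers with unlike numbers ran from −0.16 to 0.13. With so few livers these values cannot decide whether the numbers pair the mice. The block left the ratio differences as they were.

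When 1 library was left out, the difference in the share of miR-143-5p ran from −0.0050 to 0.013 percentage points and that of miR-145a-3p from −0.76 to 2.68, both with changes of sign. The log2 ratio of the arms ran from −0.22 to 0.071 for miR-143 and from −0.29 to 0.074 for miR-145a, and that of miR-143-3p over miR-145a-5p from −0.41 to −0.12. For the log2 ratio of miR-143-3p to miR-122-5p (−0.096) the values ran from −0.23 to 0.053, with 0.053 without NC replicate 2 and 0.050 without MAFLD replicate 1. The log2 ratio of miR-143-3p to miR-199a-3p ran from −0.96 to −0.62. With 25 to 68 reads of miR-143-5p a library, counting error limits that arm.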
